A study of Mus musculus with 24 samples.

Results

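The genes of the mouse major histocompatibility complex (MHC, called H2 in the mouse) and the genes that load its molecules with peptide were followed through E4F1 knockout in 2 kinds of mouse embryonic fibroblasts (MEFs). Members were all genes whose symbol in the deposited tables begins with H2-, together with B2m, Tap1, Tap2, Tapbp, Psmb8, Psmb9 and Psmb10. The rule found 23 genes, measured by 117 probes, among 4414 genes that could be named on the arrays. No named probe of Psmb10 was found, and the genes of the classical class II molecules were not analysed here for the same reason. A probe could be named mostly where it, or another probe designed on the same transcript, stood in a deposited table. By the authors' deposited lists for the Ha-RasV12 comparison all 23 genes were listed as higher after knockout, 20 in the limma table and 23 in the widest SAM list, whereas those for p53-/- cells held 2. How many members passed in the Ha-RasV12 comparison, or in another that uses the same Ha-RasV12 samples, therefore follows partly from how members were found, and nothing is read from such counts by themselves.

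The cells came from 13.5-day embryos of mixed C57BL/6 and 129Sv/J background, and all were p53-/-. CRE recombinase, delivered by a self-excising retrovirus, had deleted the floxed E4f1 allele 3 days before the RNA was taken. Control cells (E4F1 +/-) had received CRE too and kept 1 working copy of E4f1, and knockout cells (E4F1 -/-) kept 0. This pair was compared in p53-/- MEFs and in p53-/- MEFs transformed by a second retrovirus that encodes the activated oncogene Ha-RasV12, here called Ras cells. Each of the 4 groups had 3 replicates, lettered A to C and described in the design as independent, and each replicate was read in both dyes on 2 arrays that carried knockout and control side by side.

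MHC class I molecules show peptides from inside the cell to CD8 T cells and to natural killer cells. The proteasome cuts the peptides, the TAP transporter carries them into the endoplasmic reticulum, tapasin brings the transporter to the class I heavy chain, and beta-2 microglobulin completes the molecule. Interferons raise the whole set, through interferon regulatory factors, NF-kB and the transactivator NLRC5, and exchange proteasome subunits for those of the immunoproteasome. Fibroblasts carry class I constitutively, whereas class II molecules are mainly made by professional antigen presenting cells.

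The upstream sequences of 6 members are shown because class I genes are known to share a short enhancer there. Members that carry the exact letters searched here can be set beside those that do not. They are the 200 bases before the start of the gene in RefSeq (build GRCm38.p6, 5′ to 3′ on the gene's own strand), with GGGGATTCC, the NF-kB-like letters of the class I enhancer, and AGTTTCACT, the letters of its interferon response element, in capitals. H2-K1 lies at chr17:34000348-34000547 on the minus strand, H2-D1 at chr17:35262894-35263093 on the plus strand and H2-Q7 at chr17:35438955-35439154 on the plus strand. H2-T22 lies at chr17:36042743-36042942 on the minus strand, B2m at chr2:122147487-122147686 on the plus strand and Tap1 at chr17:34187356-34187555 on the plus strand, in a window it shares with the divergent gene Psmb9.
H2-K1: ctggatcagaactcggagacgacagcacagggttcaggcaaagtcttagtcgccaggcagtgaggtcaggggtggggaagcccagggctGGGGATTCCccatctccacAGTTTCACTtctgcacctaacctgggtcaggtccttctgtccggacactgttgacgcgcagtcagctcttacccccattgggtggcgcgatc
H2-D1: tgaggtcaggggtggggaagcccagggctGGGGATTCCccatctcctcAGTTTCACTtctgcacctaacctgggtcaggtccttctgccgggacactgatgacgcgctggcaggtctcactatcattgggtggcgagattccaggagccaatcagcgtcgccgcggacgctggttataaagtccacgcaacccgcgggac
H2-Q7: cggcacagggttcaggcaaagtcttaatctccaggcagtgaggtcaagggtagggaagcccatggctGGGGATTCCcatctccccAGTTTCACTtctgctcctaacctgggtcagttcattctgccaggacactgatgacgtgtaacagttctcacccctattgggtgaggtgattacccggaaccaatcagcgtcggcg
H2-T22: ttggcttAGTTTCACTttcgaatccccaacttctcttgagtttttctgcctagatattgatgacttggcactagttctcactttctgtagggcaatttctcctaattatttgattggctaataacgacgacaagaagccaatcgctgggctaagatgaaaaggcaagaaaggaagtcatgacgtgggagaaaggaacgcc
B2m: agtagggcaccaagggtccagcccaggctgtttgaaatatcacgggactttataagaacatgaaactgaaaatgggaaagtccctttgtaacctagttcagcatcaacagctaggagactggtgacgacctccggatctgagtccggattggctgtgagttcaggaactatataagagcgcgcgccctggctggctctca
Tap1: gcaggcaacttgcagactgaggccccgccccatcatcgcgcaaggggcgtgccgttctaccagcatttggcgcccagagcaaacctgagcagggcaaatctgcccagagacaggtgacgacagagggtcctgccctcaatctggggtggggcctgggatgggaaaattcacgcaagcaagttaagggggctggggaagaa

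Both sets of letters were searched on both strands of the 250 bases before the start, after the sequences had been read. GGGGATTCC stood in 0.213% of 32851 RefSeq promoter windows and AGTTTCACT in 0.268%. Of the 23 members 17 had a window. The enhancer letters stood in 4 of them, H2-K1, H2-D1, H2-Q6 and H2-Q7, and all of these also held the interferon letters. The interferon letters stood in 6, the same genes with H2-Q10 and H2-T22. Neither set of letters stood in the windows of B2m, Tap1, Psmb8, Psmb9, H2-T23, H2-M3, H2-M9, Tapbp or the H2-DM genes. Only these exact letters were searched. Variant forms of either element were not, so a window without the letters is no evidence that the element is absent. The shorter letters CCAAT stood in 15 of the 17 members and in 33.8% of all windows.

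Values are log2 signal as the authors normalized it, averaged over the 2 dyes of a replicate. A gene is described by its brightest probe. For most genes the range over its probes, or how many of them passed, follows. A probe counts as above background in a channel when it exceeds the 95th percentile of 5000 random control probes. Median signal ran from 6.11 to 6.64 over the 24 channels, the background limit from 6.24 to 7.13, and 40.3% to 46.9% of the probes lay above it. E4f1 itself fell by 1.28 in p53-/- cells, where it missed the threshold in this fit (adjusted p = 0.0759), and by 1.99 in Ras cells (adjusted p = 0.000438, limma). Its levels were 7.95, 7.62 and 8.05 in p53-/- controls against 6.57, 6.69 and 6.52 in knockouts, and 8.70, 8.23 and 7.95 in Ras controls against 6.74, 6.08 and 6.09. In knockouts it was above background in 2 of 6 p53-/- and 3 of 6 Ras channels, so the background limits the size of both falls. Where in E4f1 the probe lies relative to the deletion was not checked here. Ras control A stood apart from Ras controls B and C. The standard deviation over probes of its difference from them was 0.73 and 0.76, against 0.35 between B and C, so values without replicate A are given where a result turns on it. Fibroblast markers were above background in all 24 channels for 6 of 10 listed genes, the only ones named. The endothelial and embryonic stem cell markers had no named probe. The only named leukocyte marker, Ptprc (CD45), was above background in 4 of 24 channels and differed by 0.09 in Ras cells, and the other 13 leukocyte markers were not analysed here. The number of arrays limits the precision. In bulk RNA, fewer cells of a type and less RNA per cell cannot be told apart.

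In Ras cells the classical class I heavy chains, the Qa-2 genes, the TAP transporter, the immunoproteasome and beta-2 microglobulin were all higher after E4F1 knockout, with a fitted change between 2.12 and 3.76 on the log2 scale, and the near-identical genes H2-T9, H2-T10 and H2-T22 by 1.26 to 1.30. In p53-/- cells none of these genes passed. Knockout was compared with control within each array by limma, with Benjamini-Hochberg adjustment over 132488 probes and a threshold of 0.05. In Ras cells 19 of 23 members rose, where 1.44% of all probes were called higher. None fell, at an adjusted or an unadjusted p under 0.05, where 0.873% of all probes were called lower. The median change over the 23 genes was 2.19, and over all probes it was -0.0050. This median, too, follows partly from how members were found. By replicate, the knockout lay above every control for 17 of the 23 genes, where 4.61% of all probes did.

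**Figure D1:**
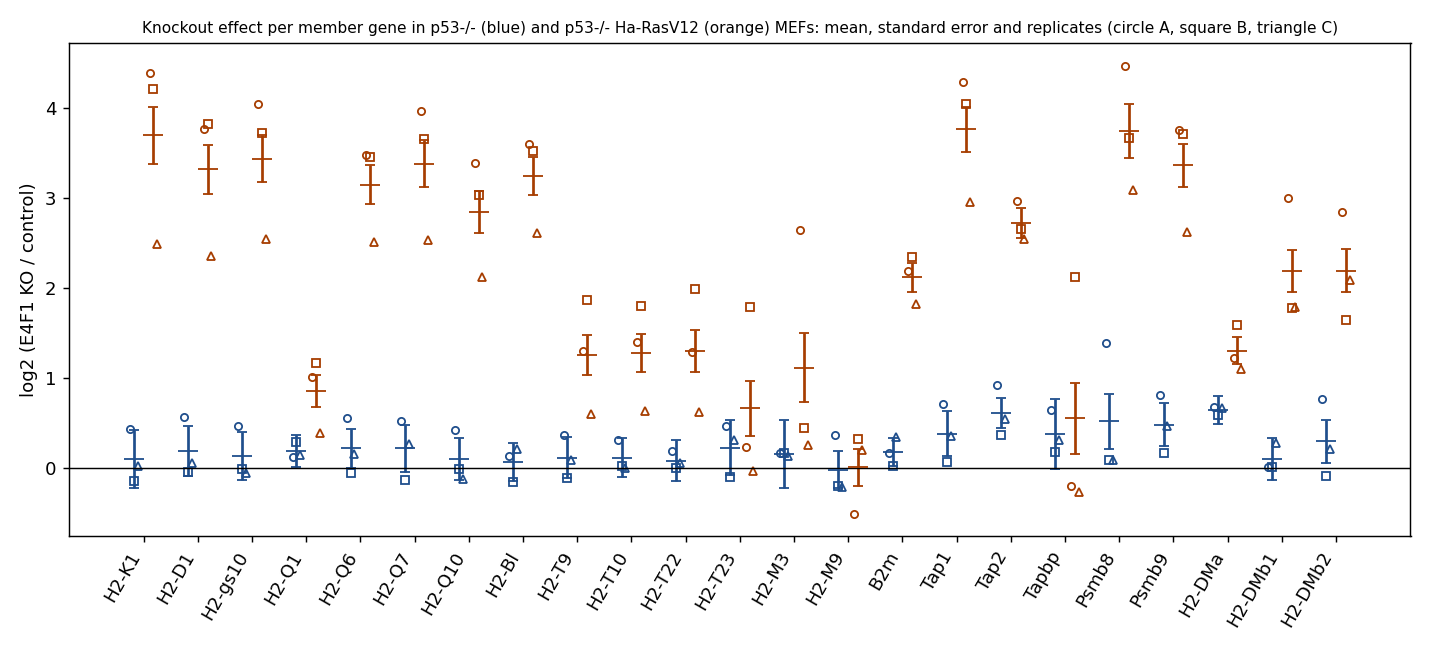
Log2 ratio of E4F1 knockout to control for each of the 23 members, on the vertical axis, in p53-/- cells (blue) and Ras cells (orange). Horizontal dashes are the means of 3 replicates, bars the standard errors of the limma fit and open symbols the replicates. The fit shares 1 estimate of spread between backgrounds, so the bars of a gene have the same length in both. The orange means run from 0.01 for H2-M9 to 3.76 for Tap1, and the blue means from -0.02 to 0.64.

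H2-K1 and H2-D1 encode the classical class I heavy chains, which carry most of the peptides shown to CD8 T cells. H2-K1 signal was 10.02, 10.06 and 10.22 in Ras control replicates A, B and C, and 14.41, 14.26 and 12.71 in the knockouts. The 3 knockouts lay far above the 3 controls, and replicate C was the lowest of them. The change was 3.69 (12.9-fold, standard error 0.32, adjusted p = 0.000544), and all 9 probes passed with changes of 1.86 to 3.69. In p53-/- cells H2-K1 was 10.33, 10.04 and 9.99 in controls and 10.76, 9.89 and 10.01 in knockouts. These groups overlapped.

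H2-D1 gave the same picture from a higher signal of its own probe. It read 11.63, 11.46 and 11.63 in Ras controls and 15.39, 15.28 and 13.99 in Ras knockouts, a change of 3.32 (standard error 0.27, adjusted p = 0.000434). Of its 9 probes, with changes of 0.19 to 3.32, 8 passed. The one that did not was above background in 0 of the 12 Ras channels. In p53-/- cells H2-D1 was 11.71, 11.65 and 11.57 in controls and 12.27, 11.61 and 11.63 in knockouts, with only replicate A clearly higher.

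**Figure D2:**
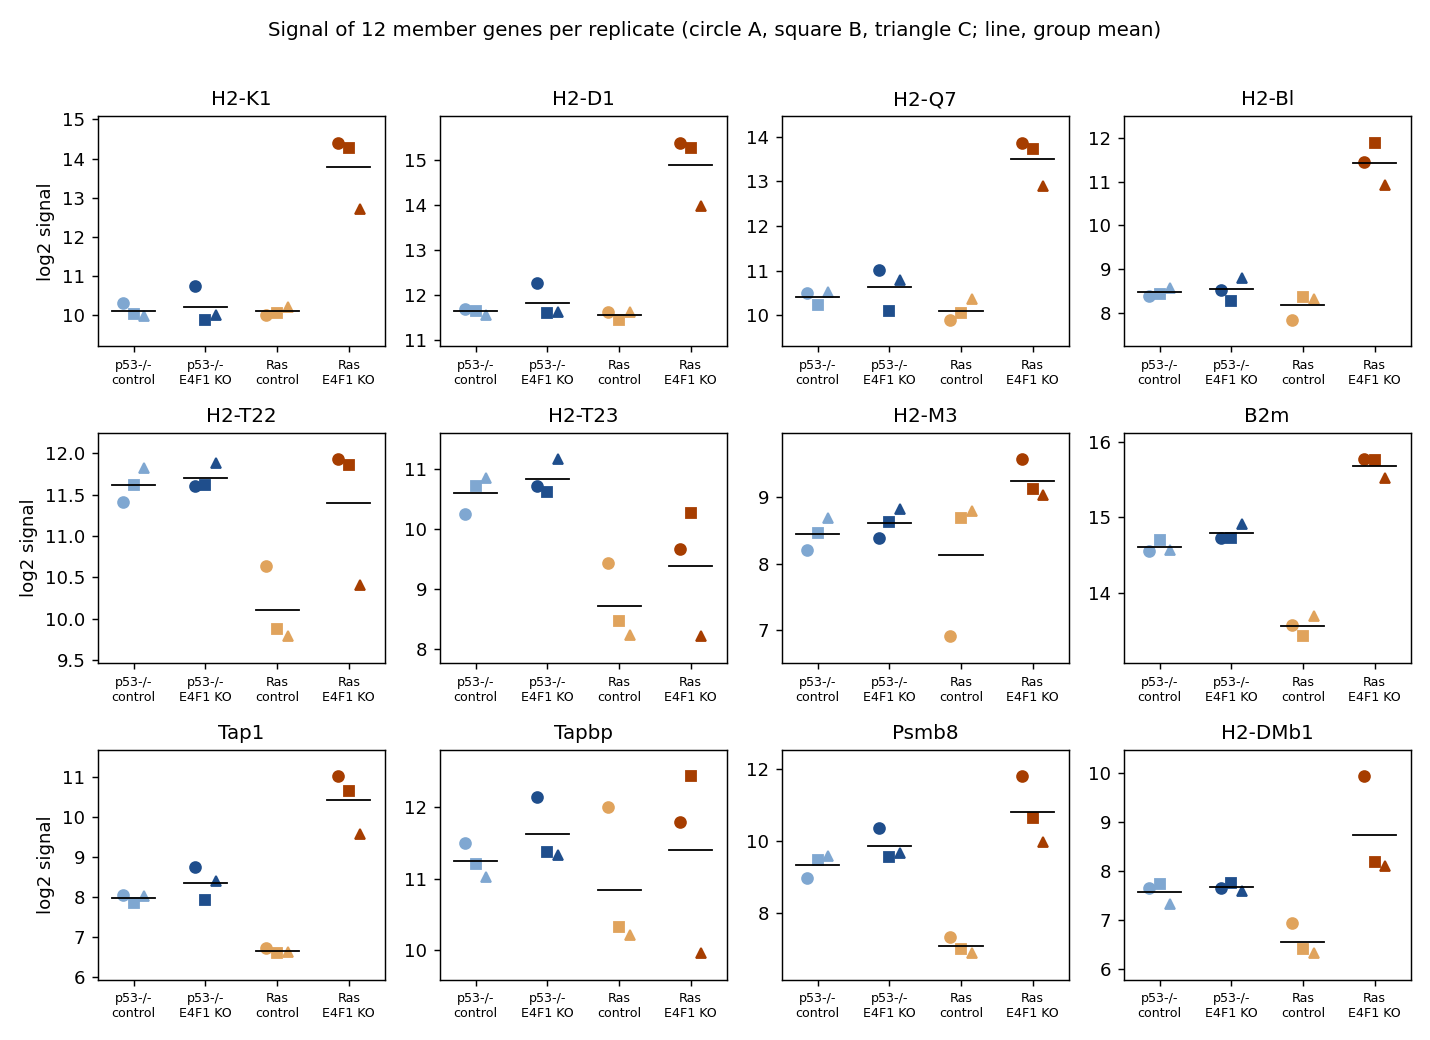
Log2 signal, on the vertical axis, of 12 members in the 4 groups, with 1 symbol per replicate and a line at the group mean; each panel has its own scale, which does not start at 0. For H2-K1 and H2-D1 only the Ras knockouts leave the common level, B2m, Tap1 and Psmb8 start lower in Ras controls than in p53-/- controls, and for H2-T23 and Tapbp the Ras groups overlap.

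The Q region genes are class Ib genes that lie beside H2-D1. H2-Q6 and H2-Q7 encode Qa-2, a class Ib molecule held in the membrane by a lipid anchor, and their near-identical transcripts were taken as one group of 12 probes. H2-Q7 read 9.91, 10.06 and 10.37 in Ras controls and 13.87, 13.72 and 12.89 in Ras knockouts. It changed by 3.38 (standard error 0.26, adjusted p = 0.000297), and H2-Q6 by 3.15 (adjusted p = 0.000171). Over the group 11 of 12 probes passed, with a median of 3.50 over all 12.

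The probe of the group that did not pass was bright. It was designed near the 5′ end of an H2-Q6 transcript, lay above background in all 12 Ras channels, and read 10.28 in controls and 10.12 in knockouts, a difference of -0.16. Another probe of H2-Q6 rose by 4.72, the largest change of any member probe. This disagreement between probes of 1 gene was seen for no other bright member probe. Genes with a called probe had 8 uncalled probes in all, and each of the other 7 was above background in at most 8 of 12 Ras channels.

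H2-gs10 keeps the symbol of the deposited table. The RefSeq table holds that name as a synonym of H2-Q4, another Q region gene. H2-gs10 read 9.86, 10.35 and 10.26 in Ras controls and 13.90, 14.08 and 12.80 in Ras knockouts, a change of 3.44 (standard error 0.26, adjusted p = 0.000297), and its 6 probes all passed. H2-Q10, which encodes a class I protein known as secreted by the liver, read 8.86, 9.27 and 9.58 in Ras controls and 12.25, 12.30 and 11.70 in Ras knockouts. It changed by 2.85 (standard error 0.23, adjusted p = 0.000432). Of its 3 probes, with changes of 0.73 to 2.85, 2 passed. Class I transcripts share long stretches of sequence, so that signals of different class I genes cannot be fully told apart at these probes, and their values are uncertain as separate measurements.

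H2-Q1 was near the floor of the assay. It was not well above background in any Ras control channel, and was above it in 5 of 6 Ras knockout channels, at 7.38, 7.54 and 6.58. The Ras knockouts were at least 1.55-fold higher (adjusted p = 0.0412), with measured means of 6.31 and 7.17. Its other 2 probes did not pass, and the call of H2-Q1 was lost when any 1 replicate was left out (adjusted p from 0.132 to 0.226).

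The T and M region class Ib genes divided. H2-Bl, a T region gene first described in blastocysts, followed the classical genes. It read 7.85, 8.37 and 8.32 in Ras controls and 11.45, 11.88 and 10.93 in Ras knockouts, a change of 3.24 (standard error 0.21, adjusted p = 0.000116). Of its 9 probes, with changes of 0.27 to 3.24, 7 passed.

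H2-T9, H2-T10 and H2-T22 are near-identical and encode molecules that need no peptide and are recognised by gamma delta T cells. H2-T22 read 10.64, 9.88 and 9.78 in Ras controls and 11.93, 11.86 and 10.40 in Ras knockouts. The lowest knockout, C, lay under the highest control, A. The change was 1.30 for H2-T22 (standard error 0.23, adjusted p = 0.0213), 1.28 for H2-T10 (adjusted p = 0.0166) and 1.26 for H2-T9 (adjusted p = 0.0231). All 21 probes of the 3 genes passed, between 0.85 and 1.33. The calls of all 3 genes at the brightest probe were lost when any 1 replicate was left out, with adjusted p between 0.0578 and 0.134.

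H2-T23 encodes Qa-1, the class Ib molecule that shows leader peptides of other class I chains to an inhibitory receptor of natural killer cells. It read 9.42, 8.47 and 8.24 in Ras controls and 9.66, 10.26 and 8.21 in Ras knockouts. These groups overlapped, and only replicate B differed by more than 1 between knockout and control. The change of 0.66 (standard error 0.31) did not pass (adjusted p = 0.377).

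H2-M3, which presents formylated bacterial and mitochondrial peptides, read 6.91, 8.68 and 8.78 in Ras controls and 9.56, 9.12 and 9.03 in Ras knockouts. Its change of 1.12 did not pass (adjusted p = 0.205) and rested on the low Ras control A. Without replicate A it was 0.35. H2-M9, of a family known from sensory neurons of the vomeronasal organ, was not well above background in any channel at its brightest probe. Its 3 probes differed by 0.01 to 0.91 in Ras cells and none passed here (lowest adjusted p = 0.0768, limma). The authors' limma table for Ras cells did list H2-M9.

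B2m encodes the light chain that every class I heavy chain needs. It read 13.58, 13.43 and 13.70 in Ras controls and 15.77, 15.76 and 15.52 in Ras knockouts. The 3 knockouts lay above the 3 controls. The change was 2.12 (4.34-fold, standard error 0.16, adjusted p = 0.000277), and its 3 probes rose by 2.05 to 2.47. The size depended on the dye. It was 3.06 on the arrays with knockout in Cy5 and 1.18 on those with knockout in Cy3, and both passed (adjusted p = 0.000117 and 0.0103). B2m signal in Ras knockouts was the highest of the members, and whether it met the upper limit of the scale was not tested. In p53-/- cells it was 14.56, 14.70 and 14.57 in controls and 14.73, 14.73 and 14.92 in knockouts, a difference of 0.18 that did not pass.

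Tap1 and Tap2 encode the paired chains of the peptide transporter. Tap1 read 6.73, 6.60 and 6.63 in Ras controls, where 4 of 6 channels were above background, and 11.02, 10.64 and 9.58 in Ras knockouts. It changed by 3.76 (13.6-fold, standard error 0.25, adjusted p = 0.000142), the largest change at a brightest probe. Tap2 read 6.60, 6.50 and 5.93 in Ras controls, with 3 of 6 channels above background, and 9.57, 9.15 and 8.48 in Ras knockouts. It changed by 2.72 (standard error 0.17, adjusted p = 9.26e-05). All 3 probes of each gene passed, with changes of 1.63 to 4.02 for Tap1 and 1.79 to 2.72 for Tap2. The fitted changes of both genes rest on control signals near the background limit.

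Tapbp encodes tapasin, the bridge between transporter and heavy chain. It read 12.00, 10.32 and 10.21 in Ras controls and 11.80, 12.44 and 9.95 in Ras knockouts. At this probe only replicate B was higher in the knockout, and the change of 0.55 did not pass (adjusted p = 0.608). Without replicate B the change was -0.23, and without replicate A, whose control was the highest, it was 0.93. Over its 3 probes the changes ran from 0.55 to 0.83, and none passed (lowest adjusted p = 0.0939, limma).

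Psmb8 and Psmb9 encode immunoproteasome subunits. Psmb8 read 7.34, 6.99 and 6.88 in Ras controls and 11.81, 10.66 and 9.98 in Ras knockouts, a change of 3.74 (13.4-fold, standard error 0.30, adjusted p = 0.00041). Psmb9 read 7.27, 6.93 and 6.97 in Ras controls and 11.02, 10.63 and 9.59 in Ras knockouts, a change of 3.36 (standard error 0.23, adjusted p = 0.00018). All 6 probes of Psmb8 and all 3 of Psmb9 passed.

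The subunits these genes replace went the other way. Psmb6, the constitutive counterpart of Psmb9, read 14.91, 15.03 and 14.87 in Ras controls and 13.00, 12.54 and 12.57 in Ras knockouts, and fell by 2.23 (standard error 0.16, adjusted p = 0.000191). Psmb6 was lower in all 3 knockouts of p53-/- cells as well, by 1.24, which did not pass (adjusted p = 0.0733). Psmb5, the counterpart of Psmb8, fell by 0.69 in Ras cells (adjusted p = 0.0495), a call lost in every refit that left out a replicate. Of the 18 genes of the constitutive proteasome and its activators, these were the 2 that could be named.

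Class II was represented by the H2-DM genes, whose products exchange peptides on class II molecules. H2-DMb1 and H2-DMb2 encode near-identical beta chains. H2-DMb1 read 6.94, 6.41 and 6.32 in Ras controls, with 3 of 6 channels above background, and 9.94, 8.18 and 8.11 in Ras knockouts. Knockout A was far above B and C. The change was 2.19 (standard error 0.24, adjusted p = 0.00174), and 11 of the 12 probes of the pair passed. H2-DMa, the alpha chain, read 8.08, 6.80 and 6.55 in Ras controls and 9.30, 8.38 and 7.65 in Ras knockouts. Its groups overlapped, but each knockout lay above the control of its own arrays, by 1.10 to 1.59, and the change of 1.30 passed (standard error 0.15, adjusted p = 0.00284). Like H2-DMb1, H2-DMa and H2-DMb2 had controls near the background limit, with 4 and 3 of 6 channels above it. Without the array as a block H2-DMa did not pass (adjusted p = 0.283). Without replicate C none of the H2-DM genes passed, with adjusted p of 0.092 for H2-DMa, 0.0708 for H2-DMb1 and 0.112 for H2-DMb2. Cd40, the 1 named gene of 10 class II regulators and partners, was above background in 0 of 12 Ras channels.

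**Figure D3:**
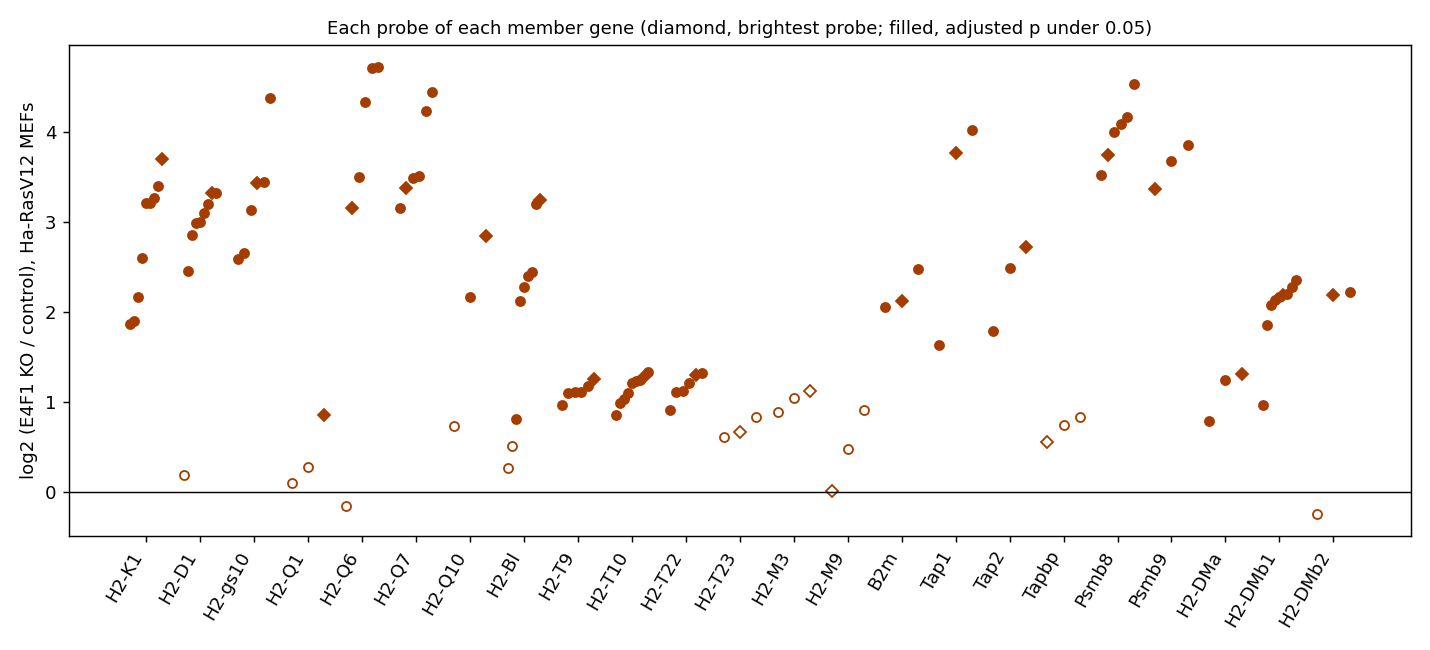
Log2 ratio of knockout to control in Ras cells, on the vertical axis, for every probe of every member. Diamonds are the brightest probes and filled symbols passed the threshold, as 97 of 117 did; called probes run from 0.78 to 4.72, and the open symbol near 0 for H2-Q6 is the bright probe that did not change with the others.

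The 3 Ras replicates differed in size of response. Among the 19 members that passed, the median difference between knockout and control was 3.39 in replicate A, 3.03 in B and 2.36 in C. Replicate C had the smallest difference in 17 of the 19 genes. Over all probes, too, the spread of the knockout to control ratio was lowest in C, with a standard deviation of 0.47 against 0.64 in A and 0.59 in B. Without replicate C 12 members remained past the threshold. These were H2-K1, H2-D1, H2-gs10, H2-Q6, H2-Q7, H2-Q10, H2-Bl, B2m, Tap1, Tap2, Psmb8 and Psmb9, and the same 12 passed in every alternative processing tried.

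In p53-/- cells no member passed, where 0.00377% of all probes were called higher and 0.0174% lower. At an unadjusted p under 0.05, H2-DMa and Tap2 were higher and none was lower by limma. H2-DMa read 8.00, 7.42 and 7.59 in p53-/- controls and 8.67, 8.01 and 8.25 in knockouts, a difference of 0.64 (standard error 0.15). Tap2 read 7.72, 7.89 and 8.22 in controls and 8.64, 8.26 and 8.77 in knockouts, a difference of 0.61 (standard error 0.17). Psmb8 differed by 1.39 in replicate A and by 0.09 and 0.08 in B and C.

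Over the 23 members the median in p53-/- cells was 0.19, against 0.00078 over all probes. Of the 23 values 22 were above 0, where 50.2% of all probes were. Class I members share sequence, so these are not 23 separate measurements. The difference was higher in knockouts of all 3 replicates for 11 members, where 15.7% of all probes were. By replicate, the median of the members was 0.47 in A, -0.00028 in B and 0.15 in C. The ratios of the 2 dye-swapped arrays of a p53-/- replicate correlated across all probes by only -0.072 to 0.023, against 0.39 to 0.62 in Ras cells. Across the member probes these correlations were -0.17 to 0.48 and 0.90 to 0.92. Probes are not independent replicates, and the correlations describe how far the arrays agree.

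The difference between backgrounds was tested in the same fit. The knockout effect was larger in Ras than in p53-/- cells for 13 of 23 members, where 0.306% of all probes were called in that direction. Since members were found through lists of genes that rise in Ras knockouts, nothing is read from that count. H2-K1 differed by 3.59 (standard error 0.45, adjusted p = 0.0117), Tap1 by 3.38 (standard error 0.35, adjusted p = 0.00545), H2-Bl by 3.17 (standard error 0.29, adjusted p = 0.00294) and B2m by 1.94 (standard error 0.23, adjusted p = 0.00869). For H2-T9, H2-T10 and H2-T22 the difference of 1.14 to 1.22 did not pass, with adjusted p of 0.218 to 0.265. Without replicate A the difference passed for 14 members, and without B or without C for 0, as 182 and 8 of all probes remained called in those refits.

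Levels were then compared between backgrounds, by limma over the 12 replicate means. These lie on different arrays, so that background and array cannot be told apart. The median over all probes was -0.13 between controls and -0.14 between knockouts (Ras minus p53-/-), and the changes below are given relative to it. The standard errors and adjusted p-values are those of the difference before this median was taken off. The Ras samples compared are the ones whose lists named the members, so the counts of members are given without reading them against the share of all probes. Among all probes 1339 were called higher and 3587 lower in Ras controls, and 1484 and 3250 in Ras knockouts. After median centring these became 2654 and 2606, and 3539 and 2174, and after quantile normalization 2377 and 3126, and 2860 and 2828.

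In Ras controls 8 members were lower than in p53-/- controls, where 2.71% of all probes were called lower, and no member was higher, where 1.01% were. At an unadjusted p under 0.05 the counts were 10 lower and 1 higher (limma). Psmb8 was lower by 2.14 relative to the median (standard error 0.38, adjusted p = 0.00375), with 8.99, 9.48 and 9.58 in p53-/- controls. H2-T23 was -1.75, Tap2 -1.46, H2-T22 -1.39, H2-T10 -1.30, H2-T9 -1.26, Tap1 -1.19 and B2m -0.91 on the same scale, with adjusted p from 0.00382 to 0.0323. The Ras controls lay below every p53-/- control for 12 of 23 members, where 15.4% of all probes did. The 8 calls numbered 10 without replicate A and 0 without B or C, and 8 after median centring and after quantile normalization.

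H2-K1 (0.12), H2-D1 (0.06), H2-gs10 (0.15) and Psmb9 (-0.06) lay within 0.2 of the median shift between controls, with standard errors of 0.32 to 0.37. Of the 12 probes of H2-Q6 and H2-Q7, 3 were called higher in Ras controls, none of them the brightest, by 1.22 to 1.87 relative to the median.

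In the knockouts 10 members were higher in Ras than in p53-/- cells, where 1.12% of all probes were called higher, and none was lower, where 2.45% were (limma; 14 and 1 at an unadjusted p under 0.05). H2-K1 was higher by 3.72 relative to the median (standard error 0.37, adjusted p = 0.000125), H2-Q10 by 3.59, H2-gs10 by 3.46, H2-D1 by 3.19, H2-Bl by 3.02, H2-Q7 by 3.00, Psmb9 by 2.83, H2-Q6 by 2.71, Tap1 by 2.20 and B2m by 1.04. The other 13 did not pass and ran from -1.31 for H2-T23 to 1.22 for H2-DMb1, with H2-T9, H2-T10 and H2-T22 at -0.11 to -0.16, Tap2 at 0.65 and Psmb8 at 1.09. A difference that does not pass is no evidence of equal levels.

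**Figure D4:**
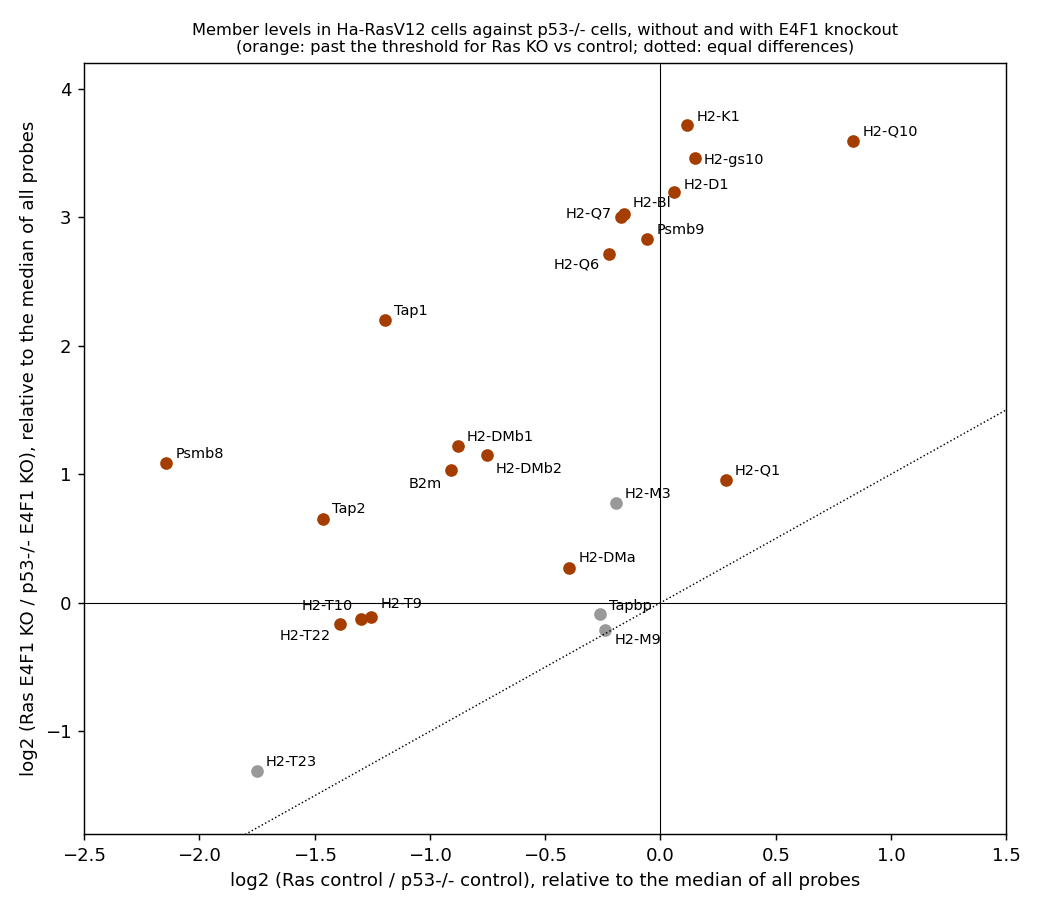
Each member's level in Ras cells relative to p53-/- cells in controls (horizontal axis) and in knockouts (vertical axis), as log2 ratios relative to the median of all probes. Orange points passed the threshold for knockout against control in Ras cells; H2-K1, H2-D1 and H2-gs10 start near 0 and end above 3, while Psmb8, Tap2 and H2-T22 start below -1 and end between -0.2 and 1.1.

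Most regulators of class I genes were not named. Of 19 listed, 6 could be followed and 0 passed in either background (limma; 4 were higher at an unadjusted p under 0.05 in Ras cells and 0 in p53-/- cells). Nlrc5, the class I transactivator, read 6.79, 6.30 and 6.11 in Ras controls, with 1 of 6 channels above background, and 7.62, 6.85 and 6.36 in Ras knockouts, with 5 of 6, a difference of 0.54 (adjusted p = 0.171). The subunits of the RFX factor, which binds class I and class II promoters, differed by 0.89 for Rfx5 (adjusted p = 0.0749), 0.61 for Rfxap (adjusted p = 0.0869) and 0.62 for Rfxank (adjusted p = 0.197). Nfya, a subunit of the CCAAT-binding factor NF-Y, differed by 0.38 (adjusted p = 0.536), and Creb1, near background, by 0.0025 (adjusted p = 0.997).

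Few genes of the interferon gamma response could be followed. Of 18 induced genes 4 were named, and 0 passed the test of knockout against control in either background (limma; at an unadjusted p under 0.05, 1 was higher in p53-/- cells and 1 lower in Ras cells). Tgtp1, an immunity-related GTPase, read 7.90, 6.56 and 6.41 in Ras controls and 6.34, 6.39 and 6.24 in Ras knockouts, a difference of -0.64 (adjusted p = 0.297). It was above background in 4 of 6 Ras control and 2 of 6 Ras knockout channels, so that its differences here meet the floor of the assay. The Tgtp1 difference was -1.56 in replicate A, -0.17 in B and -0.18 in C. Irgm2 differed by -0.08 (-1.26, 1.21 and -0.18 in A, B and C) and Gbp2 by -0.12 (-2.53, 2.09 and 0.09). Ras control A read 10.10 for Gbp2, against 6.92 and 6.98 in B and C, and 9.27 for Irgm2, against 7.57 and 7.74. With replicates of opposite sign, these means near 0 do not show that either gene was unchanged. Gbp6 differed by 0.55 (0.84, 0.34 and 0.49), but was above background in only 0 of 6 Ras control and 2 of 6 Ras knockout channels. The gene higher in p53-/- cells at an unadjusted p under 0.05 was Gbp6, by 2.58, 0.16 and 0.32 in A, B and C. Between backgrounds Tgtp1 was lower in Ras controls, at -2.79 relative to the median (adjusted p = 0.000589), as was Irgm2, at -1.71 (adjusted p = 0.0405). Both were lower in Ras knockouts than in p53-/- knockouts too, at -2.95 for Tgtp1 (adjusted p = 0.000482) and -2.06 for Irgm2 (adjusted p = 0.0175). Among 12 receptor and signalling genes 5 were named, and Ifngr2, a chain of the interferon gamma receptor, rose by 0.88 in Ras cells (10.70, 10.80 and 10.66 against 11.81, 11.74 and 11.24, adjusted p = 0.026). That call was lost without any 1 replicate.

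Of 17 peptide loading genes 6 were named, and Npepps, a cytosolic aminopeptidase, rose by 1.34 in Ras cells (adjusted p = 0.0153). The call was lost without replicate B or C. Of 13 MHC-like genes outside the MHC 7 were named, with a median of -0.35 in Ras cells. That median was the value of Raet1e, whose replicates A, B and C differed by 2.70, -2.66 and -1.11. By limma 0 of the named genes passed, and 2 were higher and 3 lower at an unadjusted p under 0.05.

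Other genes of the MHC were read beside the members, in a comparison chosen after the values were seen. Between Tapbp and H2-M3 on chromosome 17, RefSeq places 274 genes, of which 41 were named here, 20 members and 21 others. In Ras cells the median was 2.46 for the members and 0.081 for the others. The others ran from -1.15 to 1.04, and 1 passed, D17H6S56E-5, which was lower (adjusted p = 0.00928). Of the 79 MHC genes listed apart, 7 were named and 0 passed (limma; 5 higher and 1 lower at an unadjusted p under 0.05). Since a gene was mostly named only if listed, these are not all genes of the region. The members were found through lists in which they all rose in Ras knockouts, so nothing is read from the gap between these medians.

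**Figure D5:**
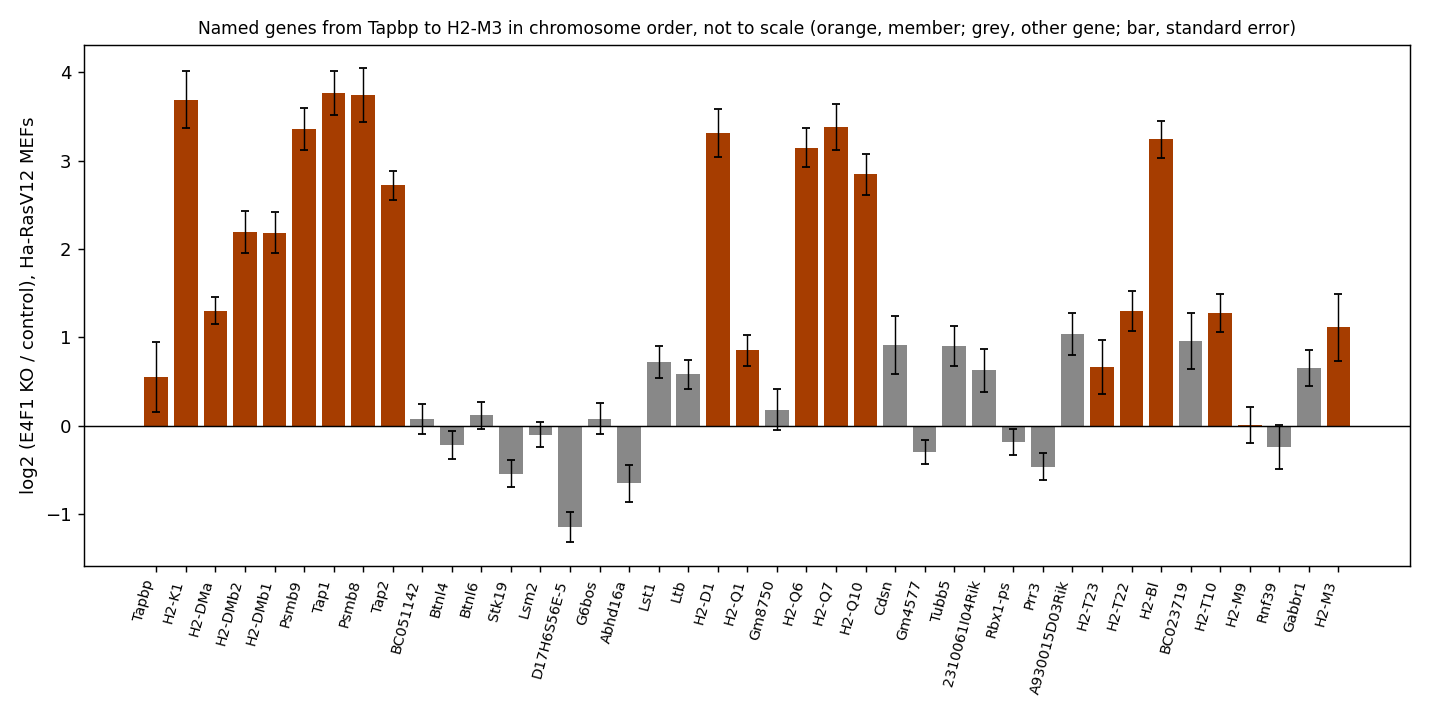
Log2 ratio of knockout to control in Ras cells, on the vertical axis, for the 41 named genes from Tapbp to H2-M3 in chromosome order, not to scale; bars start at 0 and whiskers are standard errors. Members are orange and run up to 3.76, other genes are grey and stay between -1.15 and 1.04.

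Markers of cell state moved in the same comparison. Of the fibroblast markers, Dcn rose by 2.88 and Fn1 by 1.66 and Col3a1 fell by 1.99 in Ras knockouts (adjusted p = 0.0133, 0.00421 and 0.00605, limma). The other named ones, Lum (1.37), Col1a1 (0.76) and Pdgfra (0.42), did not pass. Dcn differed by 1.13, 4.33 and 3.17 in A, B and C, with Ras control A at 11.87 against 9.10 and 8.91. Epcam, an epithelial adhesion gene, was above background in 0 of 12 p53-/- channels and in 12 of 12 Ras channels, and rose by 0.86 in Ras knockouts (adjusted p = 0.024). Krt19 differed by -1.81, which did not pass (adjusted p = 0.225), with Ras control A at 14.18 against 11.39 and 11.20. Their part in the MHC result was not tested.

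In the authors' deposited limma table for p53-/- cells, which held 0.372% of the tested probes, 1 member probe was listed, of H2-DMa, at 0.64. The authors' deposited SAM lists for p53-/- cells held 0 member probes at 1% and 2 at 5%, of H2-DMa and Tap2, and 0.38% and 0.716% of all probes. In the authors' deposited limma table for Ras cells, with 3.55% of all probes, 98 member probes of 20 genes were listed, all higher, from 0.78 to 4.72. The authors' deposited SAM lists for Ras cells held 98 at 1% and 104 at 5%, with 3.24% and 6.49% of all probes.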

How the data were processed

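Total RNA of 24 labelled samples was read on 12 two-colour arrays, per the labels. The authors deposited a table of linear intensity per channel for 137488 probes, and 6 tables of knockout against control. In the deposited tables the fold changes are log2 values, the moderated t and SAM statistics are scores, and each probe has p-values (plain and adjusted) or a q-value. The submitters' processing notes name limma. No source used here gives its version, the background correction, the normalization within arrays or the array's genome build. The mean over the 6 arrays of the log2 ratio of knockout to control matched the fold changes in the authors' limma tables within 4.8e-06, which settles scale and direction.

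Log2 intensities were fitted here with limma 3.58.1 (R 4.3.3; Python 3.11.15, numpy 2.4.6, pandas 2.3.3, matplotlib 3.10.9) as 1 value a replicate, the mean of its 2 arrays, so that arrays act as the block. Both backgrounds shared 1 estimate of spread (4 residual degrees of freedom). Knockout and control are paired because they share an array, per the labels. Deviations from group means correlated between paired samples by 0.59 to 0.63 in p53-/- cells and by 0.32, -0.056 and 0.49 in Ras cells. The labels give separate replicates but do not say which embryos they came from. The p-values and standard errors rest on the spread between replicates, pooled over the groups. For knockout against control, limma also drew each probe's spread toward that of all probes (5.4 prior beside 4 residual degrees of freedom). The p-values and standard errors of Ras cells therefore do not measure the Ras spread alone. For H2-K1 knockout and control differed by 4.39, 4.21 and 2.49 in Ras replicates and by 0.43, -0.15 and 0.02 in p53-/- replicates. With each background fitted alone its adjusted p in Ras cells was 0.0428 by limma, in place of 0.000544. The 5000 random control probes were left out of the tests. Probes were named by the symbol in a deposited table (104 member probes), by the accession shared with a listed probe (13), or by RefSeq transcript, and 21 of 23 member symbols matched RefSeq by Entrez ID. Of the per-sample columns 0 were left out.

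The members, the gene lists and the tests were chosen with earlier results of these data known. The naming rule covers all members, each at its brightest probe, up to 4 called genes of each other list, and all class I regulators. Other genes named were chosen after their values were seen.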

Additional observations from a re-analysis of the deposited data

Results flagged for a closer look

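The knockout effect differed between backgrounds, by the limma test of the difference itself, for 13 members, each larger in Ras than in p53-/- cells. Members were found through lists of genes that rise in Ras knockouts, which bears on this direction. On the log2 scale the differences were 3.59 for H2-K1, 3.12 for H2-D1, 3.30 for H2-gs10, 2.93 for H2-Q6, 3.16 for H2-Q7, 2.75 for H2-Q10 and 3.17 for H2-Bl. They were 1.94 for B2m, 3.38 for Tap1, 2.11 for Tap2, 3.22 for Psmb8, 2.88 for Psmb9 and 2.09 for H2-DMb1. None of the 13 passed without replicate B or without replicate C. Groups of 3 replicates are too small for a test of single outlying samples.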

How the results depend on the processing

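Among the probes called, the count for knockout against control in p53-/- cells was 28. It became 167 with the 12 arrays taken as independent, 183 with each background fitted alone and 4 with averaged probes. Probes were averaged by gene or, where no gene was named, by the transcript they were designed on. Without a replicate the count was 0 to 17 (0 without B or C, where 3585 and 1984 probes had an unadjusted p under 0.05 by limma). In Ras cells the 3061 calls became 1038 with no replicate block (array pairing), 10045 with arrays as independent, 280 with each background alone, 743 with averaged probes and 282 to 3552 without a replicate (1360 without B, 282 without C). For the difference between the knockout effects the 568 calls became 137 with no replicate block, 3473 with arrays as independent, 100 with averaged probes and 8 to 833 without a replicate. Between controls 4926 calls became 2069 with averaged probes, 757 to 7360 without a replicate and 6401 with the replicate letter as a block. Between knockouts 4734 became 2227, 832 to 3804 and 6681. Averaging tested 42729 features in place of 132488, and each refit without a replicate had fewer samples. For the other settings the cause was not tested. The letters are shared between backgrounds by name alone. Of the members, the 19 that rose in Ras cells became 12 with each background alone, 14 with no replicate block and 12 to 15 without a replicate. The 13 that differed between backgrounds became 11 with no replicate block and 0 to 14 without a replicate. The 8 lower in Ras controls became 0 to 10, and the 10 higher in Ras knockouts 7 to 9, without a replicate. In p53-/- cells the count was 0 in every setting tried. H2-DMa, H2-DMb1, H2-DMb2, H2-Q1, H2-T9, H2-T10 and H2-T22 each lost the call in Ras cells in at least 1 setting. No called value changed sign. By the authors' deposited tables the member probes numbered 1, 0 and 2 in p53-/- cells (limma, SAM at 1%, SAM at 5%) and 98, 98 and 104 in Ras cells. B2m rose by 3.06 with knockout in Cy5 only and by 1.18 with knockout in Cy3 only, against 2.12, and the cause was not tested. Signal near background limits H2-Q1, H2-M9, Tap1, Tap2, H2-DMa, H2-DMb1 and H2-DMb2 in Ras controls.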
